A study of Mus musculus with 4 samples.

Results

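The 10 genes described here are the receptors Notch1, Notch2, Notch3 and Notch4, the ligands Jag1, Jag2, Dll1 and Dll4, and the target genes Hes1 and Hey1. They were taken by symbol from 39179 gene identifiers counted in each library, and all 10 were found. The RNA came from tumour-associated macrophages (TAMs), sorted as CD45+, CD11b+, F4/80+ and GR1- cells from subcutaneous tumours in FVB mice. In 2 libraries the tumour had grown from MycCaP-BMP4 cells, which overexpress the secreted morphogen BMP4, and in the other 2 from MycCaP cells, which are mouse prostate cancer cells with a MYC transgene. Hosts and site were shared by both groups. The sources used here do not give the age or number of mice, whether the overexpressing line was a clone, or whether libraries came from separate mice, and F4/80 is named in the titles of the MycCaP-BMP4 libraries alone. Every p-value thus rests on the spread between libraries, which may be technical.

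Notch receptors are transmembrane proteins that are cut when a ligand on a neighbouring cell pulls on them. ADAM10 makes the outer cut and the gamma-secretase complex the inner one, and the freed intracellular domain joins RBPJ and a Mastermind coactivator at target genes. Hes1 and Hey1 encode repressors of the basic helix-loop-helix class that are among the best known targets. In tumours, Notch1 and Notch2 are widely expressed in leukocytes, Notch4 and Dll4 are known from endothelium, and Notch3 from the mural cells around vessels.

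Gene counts totalled 24313328 and 23058263 in MycCaP-BMP4 replicates 1 and 2, and 24967143 and 24385036 in MycCaP replicates 1 and 2. All pairs of values follow this order of replicates. The floor of 3 counts equals 0.12 to 0.13 CPM (counts divided by library size, in the usual unit). That is before the scaling named at the end of this paragraph, and the floor covers counting error only. Bmp4 checked the labels, with 512 and 182 CPM in the MycCaP-BMP4 libraries against 0.175 and 0.0422 CPM in the MycCaP libraries. The overexpressing cells are the tumour cells, and how much of this Bmp4 RNA came from them was not tested. All 15 pan-macrophage genes were detected everywhere, and they summed to 6265 and 23240 CPM in MycCaP-BMP4 TAMs and to 30580 and 27240 CPM in MycCaP TAMs. Mitochondrial genes took 3.28% and 2.85% of counts in MycCaP-BMP4 TAMs and 0.671% and 1.63% in MycCaP TAMs, and their part in the results was not tested. MycCaP-BMP4 replicate 1 stands apart by its macrophage genes, and in bulk RNA fewer macrophages and less RNA per macrophage cannot be told apart. CPM values are scaled with edgeR's TMM factors, which hold most genes level between libraries.

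Sequences upstream of 3 receptor genes are shown because these receptors behaved in 3 ways: Notch4 was higher in both MycCaP-BMP4 libraries, Notch1 was lower in both, and Notch2 overlapped. They were read from RefSeq's promoter table (GRCm38.p6), which matched 8 of the 10 genes. Hes1 and Hey1 had no entry. Each runs 5′ to 3′ on the gene's strand within the 250 bases before the RefSeq start, and stops where an annotated exon begins. Notch4 lies at chr17:34564045-34564267 (plus strand), Notch1 at chr2:26503825-26504072 (minus strand) and Notch2 at chr3:98013288-98013526 (plus strand). Capitals mark matches to any of the 5 motifs named next.
Notch4: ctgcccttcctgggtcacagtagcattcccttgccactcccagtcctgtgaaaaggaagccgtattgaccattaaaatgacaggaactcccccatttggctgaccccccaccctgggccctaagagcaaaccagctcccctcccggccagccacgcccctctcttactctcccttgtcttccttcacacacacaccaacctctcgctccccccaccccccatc
Notch1: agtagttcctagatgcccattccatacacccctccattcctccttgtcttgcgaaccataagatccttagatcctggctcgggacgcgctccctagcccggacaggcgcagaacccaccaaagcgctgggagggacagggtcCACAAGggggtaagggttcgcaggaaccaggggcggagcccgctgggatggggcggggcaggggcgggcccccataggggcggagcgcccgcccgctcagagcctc
Notch2: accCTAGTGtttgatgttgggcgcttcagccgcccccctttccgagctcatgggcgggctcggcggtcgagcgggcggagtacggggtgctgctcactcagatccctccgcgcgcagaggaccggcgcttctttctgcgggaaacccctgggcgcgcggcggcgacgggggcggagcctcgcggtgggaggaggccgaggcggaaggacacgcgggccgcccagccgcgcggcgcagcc

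Both strands of the 250 bases were searched for the RBPJ core TGGGAA and its longer form GTGGGAA, which contains it, for the E-box CACGTG and the N-box CACNAG that HES and HEY proteins bind, and for the SMAD motif GGCGCC. The Notch4 window held none of these letters. Notch1 and Notch2 held 1 N-box each, on the plus and the minus strand of the gene, with the first base 108 and 247 bases before the start. Over 32851 such windows of all genes, 36.7% held an N-box, 21.6% the RBPJ core, 5.42% its longer form, 6.02% the E-box and 9.59% the SMAD motif, so matches of this kind are common and are given as a description only.

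Of the 10 genes, 9 passed the filter on low counts and entered edgeR's quasi-likelihood test with all others. None passed at a Benjamini-Hochberg adjusted p of 0.05, and neither did any of the 14075 genes tested (0%), although 2680 had an unadjusted p under 0.05. That share was 12.3% of all genes for higher and 6.76% for lower in MycCaP-BMP4 TAMs, and among the Notch genes it was met by Notch4 alone, which was higher. limma-voom called 0 genes too, with 2743 at an unadjusted p under 0.05. DESeq2 called 6.83% of genes higher and 3.01% lower, and of the Notch genes it called Notch4. Notch4 and Jag1 lay above both MycCaP libraries in both MycCaP-BMP4 libraries, as did 28.9% of all genes tested, and Notch1 and Jag2 lay below, as did 29.7%. These counts are near the background. Counts of marker genes given further on are to be read against the same 28.9% and 29.7%.

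**Figure D1:**
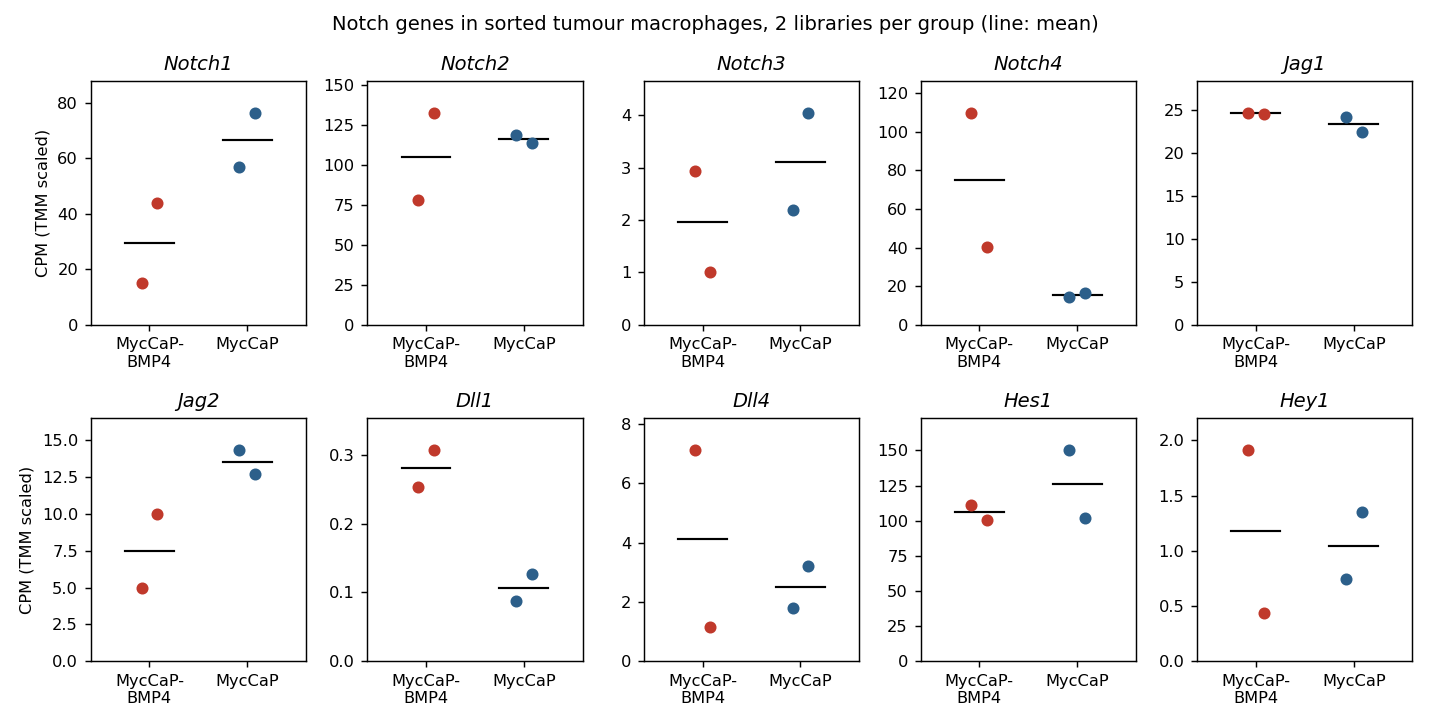
CPM (TMM scaled, linear axis from 0) of the 10 Notch genes, with a point for each library and a line at the group mean, MycCaP-BMP4 left and MycCaP right. Notch4 stands at 110 and 40.2 CPM in MycCaP-BMP4 TAMs, above 14.3 and 16.4 CPM in MycCaP TAMs, while Dll4 and Hey1 have 1 MycCaP-BMP4 library above and 1 below both MycCaP libraries.

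Levels of different genes were compared as CPM per kb of annotated exon, averaged over the 4 libraries. Hes1 was far the most abundant at 57.0 CPM per kb, followed by Notch2 at 10.3, Notch4 at 5.61, Jag1 at 4.12 and Notch1 at 3.37 CPM per kb. Jag2 had 1.51, Dll4 0.861, Hey1 0.341, Notch3 0.315 and Dll1 0.0459 CPM per kb. The lowest Hes1 library (49.4 CPM per kb) lay above the highest Notch2 library (12.3 CPM per kb), and the lowest Notch3 library (0.125) above the highest Dll1 library (0.0728). Every other pair of neighbours in this order overlapped across the libraries.

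Among the receptors, Notch4 gave the largest difference. The gene (ENSMUSG00000015468, chromosome 17, 34564268 to 34588503 on GRCm38, protein coding) was first known as a viral integration site in mouse mammary tumours and is best known as a receptor of endothelium. It had 3037 and 916 counts in MycCaP-BMP4 TAMs and 327 and 389 counts in MycCaP TAMs, or 110 and 40.2 CPM against 14.3 and 16.4 CPM. Both MycCaP-BMP4 libraries were high, replicate 1 by far the more, and the MycCaP pair lay close together. The mean was 75.1 ± 49.3 CPM in MycCaP-BMP4 TAMs and 15.4 ± 1.5 CPM in MycCaP TAMs (SD, n = 2 each). The log2 fold change was 2.29 ± 0.51 (SE; 95% interval 1.03 to 3.55), with an adjusted p of 0.144 by edgeR and 0.000562 by DESeq2, and Notch4 ranked 446 by p among 14075 genes.

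Which method and library set were used decided whether Notch4 was called. edgeR called it without MycCaP-BMP4 replicate 1 (log2 fold change 1.39, adjusted p = 0.00452), without MycCaP-BMP4 replicate 2 (2.87, adjusted p = 5.55e-05), with libraries scaled on the macrophage genes (adjusted p = 0.0304) and with no filter on low counts (adjusted p = 0.00363). Over all alternatives its adjusted p ran from 5.55e-05 to 0.890. With a lone MycCaP-BMP4 library the spread comes from the MycCaP pair, so those calls do not show that the difference repeats. Its direction held in every alternative run, from 1.39 to 4.25, the highest with libraries scaled on the macrophage genes, where all genes shift by a median of 1.58.

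Notch1 (ENSMUSG00000026923, chromosome 2, 26457903 to 26516663), the receptor that directs T cell fate and is active in many leukocytes, was lower in both MycCaP-BMP4 libraries. It had 15.2 and 43.8 CPM in MycCaP-BMP4 TAMs and 56.7 and 76.3 CPM in MycCaP TAMs. The groups did not overlap, but the 2 MycCaP-BMP4 libraries differed from each other more than the groups' nearest values did. The log2 fold change was -1.18 ± 0.52 (SE; interval -2.46 to 0.11; edgeR adjusted p = 0.293). Without MycCaP-BMP4 replicate 2 it was -2.10, and without replicate 1 it was -0.61. Scaled on the macrophage genes or on endothelial genes, the Notch1 value was -0.02 or -0.10, beside medians of 1.58 and 0.71 for all genes.

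Genes of macrophages and lymphocytes were also lower in these libraries. Relative to the MycCaP mean, on a log2 scale with 0.1 CPM added, Notch1 stood at -2.11 and -0.59 in the MycCaP-BMP4 libraries. The median of the pan-macrophage genes stood at -2.34 and -0.44, and 13 of the 15 were lower in both MycCaP-BMP4 libraries, beside 29.7% of all genes. Lyz2, C1qa and C1qb, a lysozyme and complement genes, are the most abundant of them. The 12 T and NK cell markers, all tested, summed to 17.4 and 49.0 CPM in MycCaP-BMP4 TAMs and to 103 and 100.3 CPM in MycCaP TAMs, and 10 of them lay below both MycCaP libraries in each MycCaP-BMP4 library. The part of macrophage and T cell RNA in the Notch1 difference was not tested.

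Notch2 (ENSMUSG00000027878, chromosome 3, 98013527 to 98150361), a receptor needed for several mouse myeloid and marginal zone B cell lineages, was the main receptor by length in 3 of the 4 libraries. It had 77.7 and 132 CPM in MycCaP-BMP4 TAMs and 118 and 114 CPM in MycCaP TAMs. Of the MycCaP-BMP4 libraries 1 was below and 1 above the MycCaP pair, with a log2 fold change of -0.14 ± 0.33 (interval -0.97 to 0.69; edgeR adjusted p = 0.835), which turned to 0.19 without MycCaP-BMP4 replicate 1. Notch3 (ENSMUSG00000038146, chromosome 17, 32120820 to 32166852), the mural cell receptor, was scarce, with 2.93 and 1.01 CPM in MycCaP-BMP4 TAMs and 2.19 and 4.05 CPM in MycCaP TAMs. Its groups overlapped (log2 fold change -0.66 ± 0.72; edgeR adjusted p = 0.638).

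The mix of receptors can be read within each library, where the scaling of libraries does not enter. The mix of cells in the bulk RNA and the gene length used do enter. Exon bases number 14232 for Notch1, whose longest transcript has 9488, and 8061 for Notch4, whose longest transcript has 6591. Per length, Notch4 made up 61.2% and 24.4% of all Notch receptor transcripts in MycCaP-BMP4 TAMs, against 10.4% and 11% in MycCaP TAMs. Notch1 made up 4.80% and 15.0% in MycCaP-BMP4 TAMs, against 23.5% and 29.1% in MycCaP TAMs. For each Notch1 transcript there were 12.8 and 1.62 Notch4 transcripts per length in MycCaP-BMP4 TAMs and 0.445 and 0.380 in MycCaP TAMs. Since Notch4 lay higher and Notch1 lower in both MycCaP-BMP4 libraries, these ratios could not overlap between groups. Their log2 difference was 3.47. An exact two-sided permutation test gave p = 0.333, the smallest that 2 libraries against 2 can give. That outcome was fixed by the values of the 2 genes and adds nothing to them. The receptor sum itself was 22.3 and 20.5 CPM per kb in MycCaP-BMP4 TAMs and 17.0 and 18.4 CPM per kb in MycCaP TAMs.

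**Figure D2:**
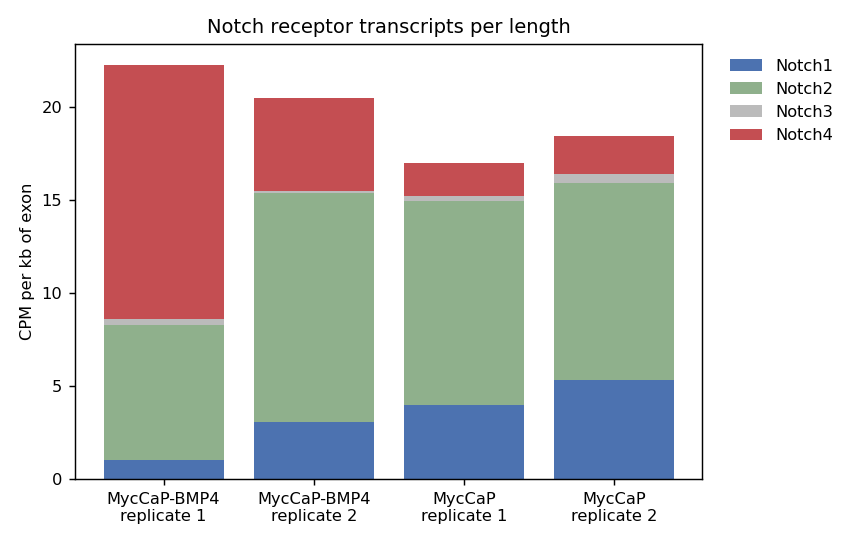
Stacked bars of the 4 Notch receptors in each library, in CPM per kb of exon, MycCaP-BMP4 libraries left. Notch4 forms 61.2% and 24.4% of the bar in MycCaP-BMP4 TAMs and 10.4% and 11% in MycCaP TAMs, and Notch2 is the largest part except in MycCaP-BMP4 replicate 1.

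Of the ligands, Jag1 was the steadiest gene of the set. Jag1 (ENSMUSG00000027276, chromosome 2, 137081456 to 137116644), a ligand made by many cell types including myeloid cells, had 24.7 and 24.6 CPM in MycCaP-BMP4 TAMs and 24.3 and 22.5 CPM in MycCaP TAMs. The 4 libraries lay within a narrow band, and the log2 fold change was 0.08 ± 0.25 (interval -0.55 to 0.71; edgeR adjusted p = 0.880). Jag2 (ENSMUSG00000002799, chromosome 12, 112907819 to 112929776), the second Jagged ligand, had 4.96 and 9.97 CPM in MycCaP-BMP4 TAMs and 14.3 and 12.7 CPM in MycCaP TAMs.

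Both MycCaP-BMP4 libraries were lower than both MycCaP libraries for Jag2, replicate 1 the more so. The log2 fold change was -0.86 ± 0.44 (interval -1.96 to 0.24; edgeR adjusted p = 0.349). Without MycCaP-BMP4 replicate 2 it was -1.42, and without replicate 1 it was -0.44. Scaled on the macrophage or endothelial genes, Jag2 turned to 0.47 or 0.05, beside medians of 1.58 and 0.71 for all genes. Jag1 exceeded Jag2 per length 5.96 and 2.95 times in MycCaP-BMP4 TAMs and 2.02 and 2.12 times in MycCaP TAMs. As Jag1 lay higher and Jag2 lower in both MycCaP-BMP4 libraries, these ratios could not overlap. The exact two-sided permutation p of 0.333, the smallest possible here, was thus fixed by the 2 genes.

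The Delta-like ligands were rare. Dll4 (ENSMUSG00000027314, chromosome 2, 119325784 to 119335962), the ligand of sprouting endothelial tip cells, had 197 and 26 counts in MycCaP-BMP4 TAMs and 41 and 76 counts in MycCaP TAMs, or 7.13 and 1.14 CPM against 1.79 and 3.21 CPM. The MycCaP-BMP4 libraries lay on opposite sides of the MycCaP pair. The log2 fold change of 0.73 ± 0.91 (edgeR adjusted p = 0.680) turned to -1.13 without MycCaP-BMP4 replicate 1 and was 1.54 without replicate 2. Dll1 (ENSMUSG00000014773, chromosome 17, 15367354 to 15376872), the other Delta-like ligand of the set, had 7 and 7 counts in MycCaP-BMP4 TAMs and 2 and 3 counts in MycCaP TAMs. It did not pass the filter, and the MycCaP libraries were at or under the floor of 3 counts.

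Hes1 (ENSMUSG00000022528, chromosome 16, 30064384 to 30067796), a transcriptional repressor and direct Notch target, had 112 and 101 CPM in MycCaP-BMP4 TAMs and 151 and 102 CPM in MycCaP TAMs. The values overlapped, with only MycCaP replicate 1 apart, and the log2 fold change was -0.25 ± 0.30 (interval -1.0 to 0.50; edgeR adjusted p = 0.668). Scaled on the macrophage genes it was 1.43, beside 1.58 for all genes. Hey1 (ENSMUSG00000040289, chromosome 3, 8663359 to 8667256), a repressor that BMP as well as Notch signals can induce in endothelial cells, had 53 and 10 counts in MycCaP-BMP4 TAMs and 17 and 32 counts in MycCaP TAMs. That is 1.92 and 0.439 CPM against 0.743 and 1.35 CPM, and the groups overlapped (log2 fold change 0.18 ± 0.89; edgeR adjusted p = 0.926, and -1.25 without MycCaP-BMP4 replicate 1).

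**Figure D3:**
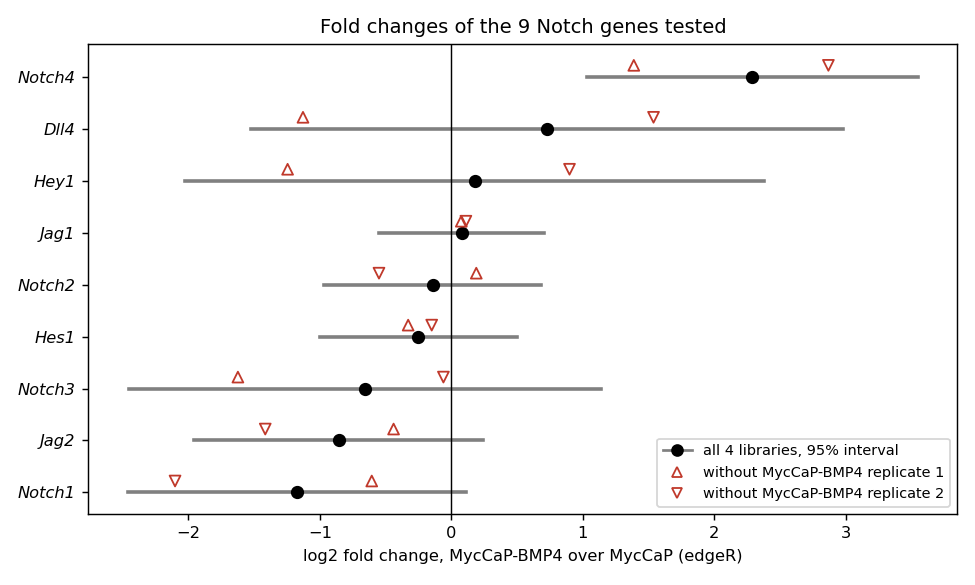
Log2 fold change (MycCaP-BMP4 over MycCaP, edgeR) of the 9 Notch genes tested, with the 95% interval as a grey line, and the same value without each MycCaP-BMP4 library as open triangles. Only the Notch4 interval (1.03 to 3.55) lies clear of 0, and Dll4, Hey1 and Notch2 change sign between the triangles.

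Dll4, Hey1 and Notch3 shared a pattern in which MycCaP-BMP4 replicate 2 was the lowest library. Their log2 difference from the MycCaP mean was 1.53 and -1.01 for Dll4, 0.87 and -1.04 for Hey1, and -0.02 and -1.47 for Notch3. The median of 18 endothelial markers stood at 0.13 and -1.16, with 5 of them lower (beside 29.7% of all genes) and none higher in both MycCaP-BMP4 libraries. The endothelial markers summed to 114 and 99.8 CPM in MycCaP-BMP4 TAMs and to 142 and 218 CPM in MycCaP TAMs, with Sox17 at 0 in MycCaP-BMP4 replicate 2 and no other marker at 0 in a library. Cdh5, the endothelial cadherin, had 12.1 and 4.04 CPM in MycCaP-BMP4 TAMs and 5.25 and 19.1 CPM in MycCaP TAMs. Mural cell markers, a list that holds Notch3 itself, had a median of -0.48 and -0.90 without it, and of the 10 others tested 5 lay lower and 3 higher in both MycCaP-BMP4 libraries. Of the lower genes, Myh11 had 6 and 3 counts and Kcnj8 8 and 2 counts in MycCaP-BMP4 TAMs. Both passed the filter only through MycCaP TAMs and could only lie lower. Without Notch3 the mural cell markers summed to 154 and 92.5 CPM in MycCaP-BMP4 TAMs and to 57.0 and 108 CPM in MycCaP TAMs. The part of endothelial and mural cell RNA in these 3 genes was not tested.

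Notch4 departed from that pattern. Its counts equalled 96.4% and 40.3% of the summed endothelial markers in MycCaP-BMP4 TAMs and 10.1% and 7.52% in MycCaP TAMs, whereas Dll4 equalled 6.25% and 1.14% in MycCaP-BMP4 TAMs and 1.27% and 1.47% in MycCaP TAMs. Eng and Pecam1, which macrophages also express, weigh on that sum. Without them the endothelial markers summed to 83.0 and 31.7 CPM in MycCaP-BMP4 TAMs and to 59.0 and 101 CPM in MycCaP TAMs, which overlap, and Notch4 equalled 132% and 127% of that sum in MycCaP-BMP4 TAMs and 24.2% and 16.3% in MycCaP TAMs. Of 8 tested arterial and tip-cell markers 2 lay higher and 3 lower in both MycCaP-BMP4 libraries. Their sum is mostly Cxcr4 and Nrp1, genes of many leukocytes that were lower in both MycCaP-BMP4 libraries. Without these it was 129 and 57.4 CPM in MycCaP-BMP4 TAMs and 15.3 and 25.3 CPM in MycCaP TAMs. Most of it in MycCaP-BMP4 TAMs was the arterial ephrin gene Efnb2, with 92.3 and 37.8 CPM there and 3.02 and 6.20 CPM in MycCaP TAMs. The median log2 difference of the 6 tested markers without Cxcr4 and Nrp1 was 1.01 and -1.09. Of these 6, 2 lay higher, 1 lower and 3 overlapped. The part of endothelial RNA in the Notch4 difference was not tested.

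The Notch4 log2 differences of 2.84 and 1.39 lay beside 2.40 and 1.13 for the median of 8 tested BMP target genes, 7 of them higher (beside 28.9% of all genes) and 1 lower in both MycCaP-BMP4 libraries. The list holds 13 genes, and the others had too few counts to be tested. Atoh8, with 2 and 4 counts in MycCaP TAMs, passed the filter only through MycCaP-BMP4 TAMs and could only lie higher. Tumour epithelial genes stood at a median of 2.28 and 1.01, with 5 of 7 tested higher and 1 lower in both, and summed to 787 and 310 CPM in MycCaP-BMP4 TAMs and to 112 and 145 CPM in MycCaP TAMs. Cldn3 had 359 and 126 CPM in MycCaP-BMP4 TAMs and 25.8 and 27.6 CPM in MycCaP TAMs, while Krt5 was at 0 in all libraries. The epithelial marker Epcam had 0 and 14 counts in MycCaP-BMP4 TAMs and 7 and 6 counts in MycCaP TAMs. Of 10 osteoblast and cartilage markers 6 were tested, and 5 lay higher in both MycCaP-BMP4 libraries. Ibsp, Acan and Col2a1 had 0 counts in both MycCaP libraries, and Alpl had 1 and 9. These genes passed the filter only through MycCaP-BMP4 TAMs, so they could only lie higher. The list medians of 3.23 and 3.02 rest on the added 0.1 CPM. All 10 markers summed to 145 and 81.0 CPM in MycCaP-BMP4 TAMs and to 19.5 and 29.0 CPM in MycCaP TAMs. Most of it was Sox9, a cartilage regulator, in MycCaP-BMP4 TAMs. Of 5 tested mast cell markers 4 lay higher and 1 lower, with sums of 21.4 and 40 CPM in MycCaP-BMP4 TAMs and 8.48 and 19.0 CPM in MycCaP TAMs. Bmp4, which the tumour line overexpresses, had 512 and 182 CPM in the MycCaP-BMP4 libraries and 0.175 and 0.0422 CPM in the MycCaP libraries. The part of RNA from tumour, skeletal or mast cells in the Notch4 difference was not tested.

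**Figure D4:**
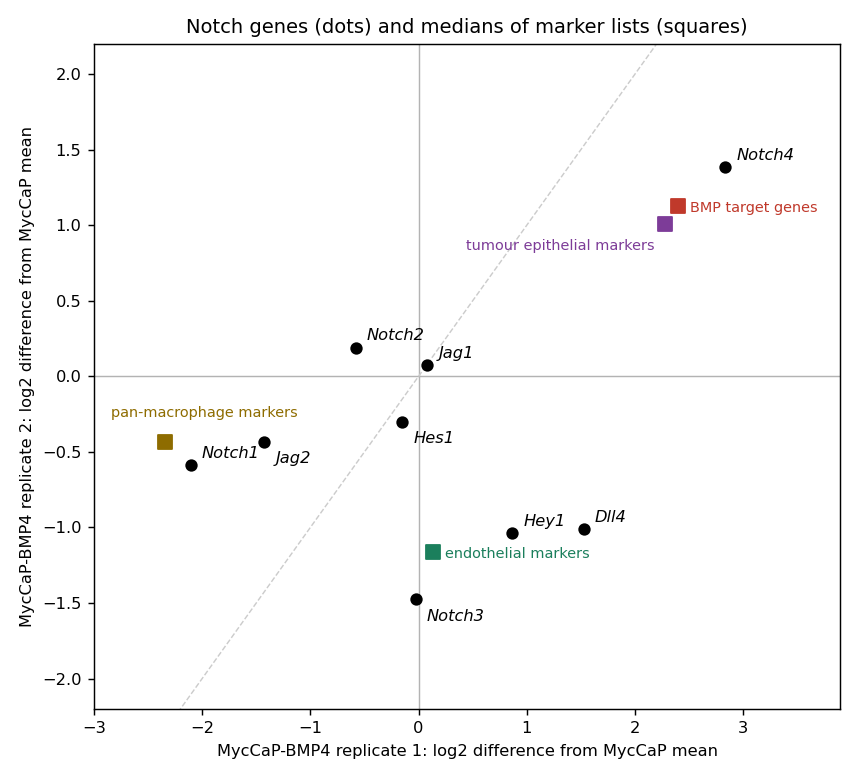
Log2 difference from the MycCaP mean in MycCaP-BMP4 replicate 1 (horizontal) and replicate 2 (vertical) for the 9 tested Notch genes (dots) and the medians of 4 marker lists (squares), with a dashed line of equality. Notch4 lies at 2.84 and 1.39 near the BMP target and tumour epithelial medians, Notch1 at -2.11 and -0.59 near the pan-macrophage median, and Dll4, Hey1 and Notch3 lie between -1.47 and -1.01 on the vertical axis, where the endothelial median is -1.16, but spread from -0.02 to 1.53 on the horizontal axis, where it is 0.13.

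For each tested Notch gene the closest profiles were sought among 173 tested genes of the other lists, by the distance between log2 profiles over the 4 libraries, each centred on its mean. With 4 libraries such likeness is a description. Closest to Notch4 were the BMP target Smad9 (distance 0.358) and Abcc9 (0.503), a channel gene of the mural cell list, most of whose other members did not lie higher. Smad9 had 36 and 11.2 CPM in MycCaP-BMP4 TAMs and 3.24 and 4.60 CPM in MycCaP TAMs. Notch3 lay closest to the endothelial receptor genes Kdr (0.196) and Flt1 (0.320), Hey1 to the endothelial genes Plvap (0.345) and Emcn (0.488), and Dll4 to S100a9 (0.542) and Plvap (0.610).

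Of the other Notch genes, Notch1 was closest to Eng (0.252), an endoglin gene of endothelium that macrophages also express, and to the chemokine receptor gene Ccr7 (0.278). Jag2 was closest to the gamma-secretase genes Aph1b (0.131) and Aph1a (0.277), Notch2 to Tle4 (0.175) and Furin (0.255), Jag1 to Pofut1 (0.086) and Ncor1 (0.226), and Hes1 to Mib2 (0.258) and Snw1 (0.340).

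The wider pathway was read from 68 other genes in 7 lists by role, of which 58 were tested. None passed edgeR's adjusted threshold, 5 had an unadjusted p under 0.05 in each direction, and DESeq2 called Adam10 (higher, adjusted p = 0.0203) and Bhlhe41 (lower, adjusted p = 0.0140). In both MycCaP-BMP4 libraries 16 lay higher (27.6%) and 20 lower (34.5%), close to the 28.9% and 29.7% of all genes. Rbpjl is among the 16, and among the 5 higher at an unadjusted p under 0.05. It passed the filter only through MycCaP-BMP4 TAMs and could only lie higher. The median log2 fold change of the 58 genes was -0.15, beside -0.03 for all genes tested.

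Enzymes that cut Notch lay on both sides. Of 10 tested, 1 lay higher and 5 lower in both MycCaP-BMP4 libraries (median log2 fold change -0.46). Adam10, the protease of the first activating cut, had 870 and 541 CPM in MycCaP-BMP4 TAMs and 265 and 318 CPM in MycCaP TAMs, a log2 fold change of 1.28 ± 0.40 (edgeR adjusted p = 0.195). Of 7 gamma-secretase genes in the list, 5 lay lower and 2, Ncstn (log2 fold change 0.06) and Aph1c (-0.41), overlapped between groups. Psenen had 27.3 and 24.0 CPM in MycCaP-BMP4 TAMs and 59.0 and 45.4 CPM in MycCaP TAMs, and the catalytic subunit gene Psen2 had 16.9 and 26.8 CPM in MycCaP-BMP4 TAMs and 56.0 and 34.6 CPM in MycCaP TAMs (edgeR adjusted p = 0.155 and 0.227 for these genes). The log2 fold change of Aph1b, a further subunit gene, was -0.82.

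Nuclear partners had a median near 0. Of 10 tested, 4 lay higher and 2 lower, with a median of -0.01. Rbpj, the DNA-binding partner of all Notch receptors, had 37.9 and 90.0 CPM in MycCaP-BMP4 TAMs and 87.8 and 83.8 CPM in MycCaP TAMs, with replicate 1 alone below the rest. Its relative Rbpjl, known from the pancreas, had 0.362 and 2.28 CPM in MycCaP-BMP4 TAMs and 0.219 and 0.0844 CPM in MycCaP TAMs (edgeR adjusted p = 0.246). With 5 and 2 counts in MycCaP TAMs, Rbpjl passed the filter only through MycCaP-BMP4 TAMs and could only lie higher. The log2 fold change of the acetyltransferase gene Kat2a was 0.82, that of Snw1 -0.58 and that of the coactivator gene Maml3 0.63. Of 13 corepressor genes, 5 lay higher and 3 lower, with a median of 0.26. Tle3, a Groucho corepressor of the kind HES proteins recruit, had a log2 fold change of 0.58, Tle2 of 1.11, Hdac2 of 0.50 and Tle1 of 0.57.

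Genes that tune ligands and receptors split too. Mfng, a Fringe that alters which ligands Notch answers to, had 3.69 and 12.3 CPM in MycCaP-BMP4 TAMs and 24.9 and 19.4 CPM in MycCaP TAMs, and its relative Rfng had 29.7 and 28.4 CPM in MycCaP-BMP4 TAMs and 21.0 and 16.9 CPM in MycCaP TAMs (edgeR adjusted p = 0.264 and 0.289). Of 6 glycosyltransferase genes 3 lay higher and 2 lower, with a median of -0.09. Eogt had a log2 fold change of 0.59 and Poglut1 of -0.33. Among 6 tested genes of ligand handling and other ligands, 2 lay higher and 3 lower, with a median of -0.26. The ubiquitin ligase gene Mib1, which primes ligands for their pull, had a log2 fold change of 0.63, the Delta-like gene Dlk2 of 1.64, Neurl3 of -1.35 and Neurl1a of -0.49.

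Inhibitors, turnover genes and other HES, HEY and related genes completed the set. Of 10 tested inhibitor and turnover genes 1 lay higher and 3 lower, with a median of -0.08. The log2 fold changes of the 4 tested Deltex genes were -1.13 for Dtx3l, 0.87 for Dtx3, -1.0 for Dtx4 and 0.22 for Dtx2, and that of the kinase gene Aak1 was -1.02. Nrarp, a feedback inhibitor and Notch target, had 3.51 and 1.98 CPM in MycCaP-BMP4 TAMs and 3.50 and 3.46 CPM in MycCaP TAMs. Only 3 of 10 other HES, HEY and related genes could be tested. Bhlhe41, a repressor related to HES, had 5.10 and 19.4 CPM in MycCaP-BMP4 TAMs and 51.2 and 45.4 CPM in MycCaP TAMs (log2 fold change -1.99 ± 0.62; edgeR adjusted p = 0.196), while Hes6 had a log2 fold change of -0.78 and Bhlhe40 of 0.10. Hey2 had no count in any library, and Heyl and Hes5 stayed under 0.2 CPM in each.

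**Figure D5:**
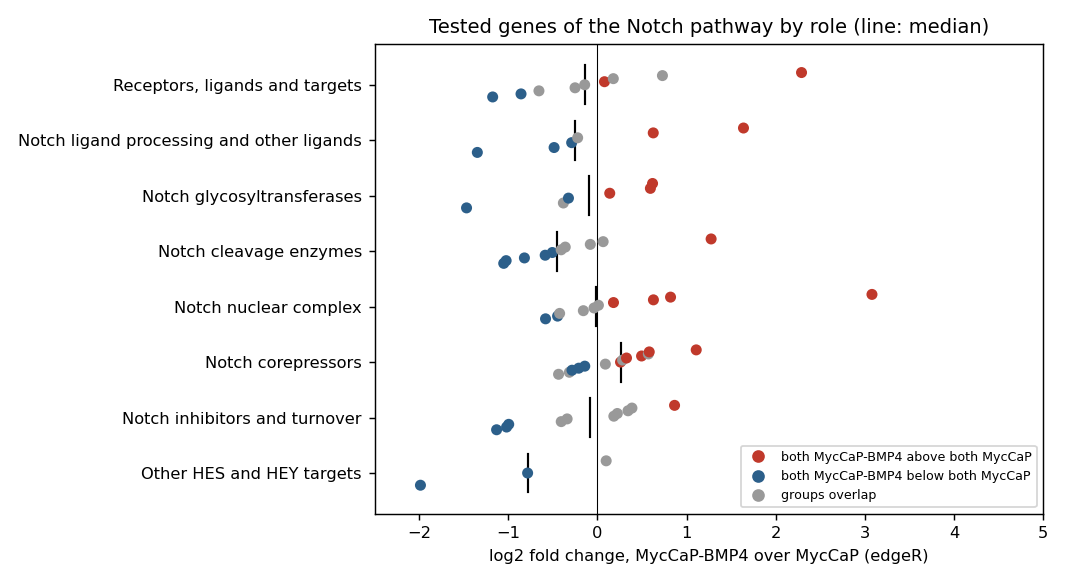
Log2 fold change (MycCaP-BMP4 over MycCaP, edgeR) of the tested Notch pathway genes by role, with a line at each median, in red where both MycCaP-BMP4 libraries lie above both MycCaP libraries, blue where below and grey where the groups overlap. The medians run from -0.78 for the list labelled other HES and HEY targets to 0.26 for corepressors, and no gene passed the adjusted threshold. The -0.78 rests on 3 tested genes, Hes6, Bhlhe40 and Bhlhe41, and whether Notch regulates them here was not tested.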

How the data were processed

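RNA-seq was run on sorted macrophages, and libraries were grouped by the tumour cells named in the labels. The authors deposited raw counts per gene, and the submitters' processing notes list HTSeq, STAR 2.6.0b, RSEM, Bowtie2 2.2.3 and GRCm38 (mm10). For roles, annotation release and strand setting, the entry is: not given in the sources used here. Genes on the opposite strand overlap 7.50% and 2.91% of Notch1 exon bases, 20.5% of Dll1, 6.03% of Notch3 and 5.56% of Dll4, and a gene on the same strand 5.02% of Notch2. How many of their counts come from these genes was not measured.

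Symbols came from a reference table (37607 of 39179 identifiers) and coordinates and exon lengths from GENCODE M21. The 5 summary lines, which name no gene, were left out. Of all reads they hold, by library, 3.37% to 6.03% outside genes, 2.70% to 2.90% in overlapping genes and 8.01% to 10.6% aligned to several places. Within each group, neither library copied the other (chi-square per degree of freedom 279 in the MycCaP-BMP4 pair and 43.2 in the MycCaP pair). Libraries of different groups were not compared in this way.

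All 4 libraries entered edgeR 4.0.16 (filterByExpr, TMM, quasi-likelihood F test, two-sided, no covariate, Benjamini-Hochberg over 14075 genes). SEs and intervals come from the F statistic, and the biological coefficient of variation was 0.363. The script was tested on simulated data. DESeq2 1.42.0, limma 3.58.1, other scalings and filters, a block and each library left out were alternatives. Named genes are the 10 Notch genes, Bmp4, up to 4 of each pathway list with the smallest p or that a sentence needs, marker genes with the highest CPM and the 2 closest profiles. Sox17, Krt5, Epcam, Ibsp, Acan and Col2a1 are named beside the rule, for their counts of 0, and Alpl, Atoh8, Cd8a, Myh11 and Kcnj8 for low counts. The sums without Eng and Pecam1, without Cxcr4 and Nrp1 or without Notch3 were added. All of this was done with the values in view. The genes and lists were chosen with earlier results of these data known.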

Additional observations from a re-analysis of the deposited data

How the results depend on the processing

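Across the alternatives, 94 of 117 log2 fold changes of single Notch genes kept their direction and side of the threshold, 8 kept their direction and passed, and 15 turned. Of all genes, 65 passed edgeR with library size alone, 158 scaled on endothelial markers, 745 scaled on pan-macrophage markers, 1109 with no low-count filter and 1385 by DESeq2, against 0 as reported, and 0 to 5753 with 1 library left out. The cause was not tested. Of the Notch genes 1 (Notch4) passed with pan-macrophage scaling, with no filter and by DESeq2, and 0 to 4 with 1 library left out. Of the other pathway genes 1, 1 and 2 passed in those 3 settings, and 0 to 26 with 1 library left out. Tested were 9 Notch genes and 58 other pathway genes. The counts of both were highest without MycCaP-BMP4 replicate 2, where the count over all genes was highest too. With a lone library in a group the spread comes from the other pair. Those counts are thus not read as a result about the Notch genes.

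The pathway median of -0.15 was 0.008 with library size alone, 1.43 scaled on pan-macrophage markers, 0.74 scaled on endothelial markers, and -0.191 to 0.031 with 1 library left out. All genes shifted by a median of 1.58 and 0.71 under the marker scalings and by 0.14 with library size alone. Log2 fold changes turned with pan-macrophage scaling for Notch2 (1.25), Notch3 (1.29), Jag2 (0.47) and Hes1 (1.43), and with endothelial scaling for Notch2 (0.74), Jag2 (0.048) and Hes1 (0.37). Notch2 was at 0.001 with library size alone, and Hey1 at -0.071 by limma-voom. With 1 library left out the ranges were -0.55 to 0.19 for Notch2, -1.13 to 1.54 for Dll4, -0.51 to 0.049 for Hes1 and -1.25 to 0.90 for Hey1. With the longest transcript as length, Notch1 passed Jag1 in the order of levels.

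Replicate numbers are not said to pair the libraries, and same-numbered libraries deviated from their group means with r = -0.13 across 14075 genes. With the replicate block 2 genes passed, 0 of them Notch genes, and Hey1 turned to -0.077. With crossed numbers, chosen after the data were seen, 689 genes passed.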
